A study of Mus musculus with 2 samples.

Results

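The positions described here are cytosines in CpG dinucleotides that were fully methylated in wildtype (wt) mouse embryonic fibroblasts (MEFs) and partly methylated in MEFs lacking oestrogen receptor β (βerko). They were chosen from the measured values: above 80 % methylation in wt MEFs and from 20 to 80 %, limits included, in βerko MEFs. The rule took 46292 of the 826937 cytosines covered in both cell types, which is 5.6 % of all covered positions and 17.2 % of the 268799 positions above 80 % in wt MEFs.

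Methylation was measured by reduced representation bisulfite sequencing (RRBS), in which MspI, an enzyme that cuts at CCGG, enriches the CpG-rich part of the genome and bisulfite turns unmethylated cytosines into bases that are read as thymine. Both cell types were embryonic fibroblasts of C57BL/6 background, with the genotypes wildtype and ESR2 -/-, and were grown in the same medium. For each genotype DNA of 3 batches was pooled into 1 library, so there were no replicates, no test could be made, and a difference between the genotypes cannot be told apart from one between the cultures or libraries. The read depth of the partly methylated positions is unknown, because the table of both libraries gives percentages only.

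CpG methylation in mammalian cells is mostly an all-or-none state of each DNA molecule at each site. DNMT1, the maintenance methyltransferase, copies it to the new strand after replication, DNMT3A and DNMT3B set it anew, and it is removed when copying fails or when TET enzymes oxidise 5-methylcytosine and thymine DNA glycosylase (TDG) excises the oxidised base. A position read as partly methylated is therefore methylated on some of the sequenced molecules and not on others, which can come from a mixture of cells or from differing copies within a cell. Bisulfite sequencing does not separate 5-methylcytosine from 5-hydroxymethylcytosine.

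These stretches are printed because they hold much of the largest runs of partly methylated positions and show how closely these positions stand. A run was at least 5 such positions, on either strand, each within 100 bp of the next. Every sequence is the plus strand of NCBIM37 (mm9), 5′ to 3′, and CG in capitals marks a CpG with a partly methylated cytosine on at least 1 strand. A CpG in lower case was not covered in both libraries or fell outside the rule.
Agap3 intron chr5:23980667-23980966: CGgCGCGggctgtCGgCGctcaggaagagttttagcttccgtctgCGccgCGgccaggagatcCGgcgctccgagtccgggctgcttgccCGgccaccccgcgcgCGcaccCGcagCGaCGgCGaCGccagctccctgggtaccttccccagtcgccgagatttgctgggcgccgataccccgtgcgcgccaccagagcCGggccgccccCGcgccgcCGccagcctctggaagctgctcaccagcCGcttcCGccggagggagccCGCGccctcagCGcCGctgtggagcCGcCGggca
Zfpm1 exon chr8:124860085-124860384: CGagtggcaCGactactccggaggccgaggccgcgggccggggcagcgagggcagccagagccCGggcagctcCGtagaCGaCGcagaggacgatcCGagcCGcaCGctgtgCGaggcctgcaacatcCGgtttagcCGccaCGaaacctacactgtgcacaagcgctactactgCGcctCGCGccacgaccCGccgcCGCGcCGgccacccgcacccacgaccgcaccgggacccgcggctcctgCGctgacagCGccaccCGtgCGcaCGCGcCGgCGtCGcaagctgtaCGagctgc
Intergenic, near Scn8a chr15:100884026-100884325: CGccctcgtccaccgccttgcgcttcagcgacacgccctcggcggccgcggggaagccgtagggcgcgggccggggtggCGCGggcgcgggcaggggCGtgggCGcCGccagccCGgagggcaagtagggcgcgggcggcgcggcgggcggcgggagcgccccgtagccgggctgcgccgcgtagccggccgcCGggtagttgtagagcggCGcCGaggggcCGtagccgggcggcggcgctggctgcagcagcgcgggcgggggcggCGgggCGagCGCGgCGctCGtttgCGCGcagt
Tnxb exon chr17:34808842-34809138: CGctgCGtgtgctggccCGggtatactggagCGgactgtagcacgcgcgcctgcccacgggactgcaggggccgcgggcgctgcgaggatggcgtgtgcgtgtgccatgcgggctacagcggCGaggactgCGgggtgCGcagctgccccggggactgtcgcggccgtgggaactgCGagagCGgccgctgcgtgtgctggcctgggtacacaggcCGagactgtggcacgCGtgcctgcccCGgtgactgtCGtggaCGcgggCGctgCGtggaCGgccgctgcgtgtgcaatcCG
Isyna1 exon chr8:73118536-73118639: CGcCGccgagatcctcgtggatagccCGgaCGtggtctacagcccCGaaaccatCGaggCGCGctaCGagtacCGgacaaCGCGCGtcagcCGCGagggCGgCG

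In the Agap3 stretch 26 of 45 CpGs are marked, and in the Zfpm1 stretch 30 of 46. The intergenic stretch is the richest in CpGs with 59, of which 19 are marked. The Tnxb stretch has 18 of 40 marked, and the short Isyna1 stretch of 104 bases has 17 of 19. MspI sites (CCGG) number 6, 7, 6, 3 and 2 in the same order. Cytosines covered in both libraries, counted per strand, number 42, 42, 23, 37 and 25, of which 31, 35, 19, 20 and 22 are partly methylated. Coverage therefore limits how many CpGs can be marked, as in the intergenic stretch, which has the most CpGs and the fewest covered cytosines.

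The size of the drop follows in part from the rule and is given as a description. Over all 46292 positions the medians were 93.94 % for wt and 62.5 % for βerko MEFs, and the median drop was 31.1 percentage points (interquartile range 20.29 to 47.04, range 0.28 to 80). In wt MEFs 13300 positions, 28.7 %, were read as 100 % methylated. In βerko MEFs 25784 positions (55.7 %) still lay at 60 % or higher, 12737 (27.5 %) lay from 40 to below 60 %, and 7771 (16.8 %) below 40 %. A drop below 20 points was found at 10358 positions (22.4 %), one of 20 to 40 points at 19683 (42.5 %), one of 40 to 60 points at 11123 (24.0 %), and one of at least 60 points at 5128 (11.1 %). The class is thus a continuum from differences that barely cross a threshold to near-complete loss.

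The thresholds cut through densely filled ranges. The lowest wt value inside was 80.16 % and the highest outside was 80 %. In βerko MEFs 2089 positions were exactly at the upper limit of 80 %, and the next value outside was 80.19 %. From 75 to 80 % in βerko MEFs lay 10571 positions of the class, and just outside, up to 85 %, lay 11929 positions that counted as methylated in both cell types. The lower limit was less crowded, with 308 positions at exactly 20 %, 2144 from 20 to 25 %, and 1461 from 15 to 20 % that were outside, the highest of them at 19.81 %.

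The opposite class, from 20 to 80 % in wt and above 80 % in βerko MEFs, gives the level at which positions of the same libraries crossed the same thresholds the other way. It held 42069 positions, 5.09 % of all covered and 16.1 % of the 260615 positions above 80 % in βerko MEFs. By number the drops thus exceeded the gains 1.10-fold. Gains were somewhat smaller, with a median of 27.42 points (interquartile range 19.04 to 41.51), and 2698 of them (6.41 %) reached 60 points. Below 25 points, every 5-point bin held more gains than drops, whereas from 25 to 30 points the counts were 5379 drops and 5378 gains, and in each bin above that drops were the more numerous.

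**Figure D1:**
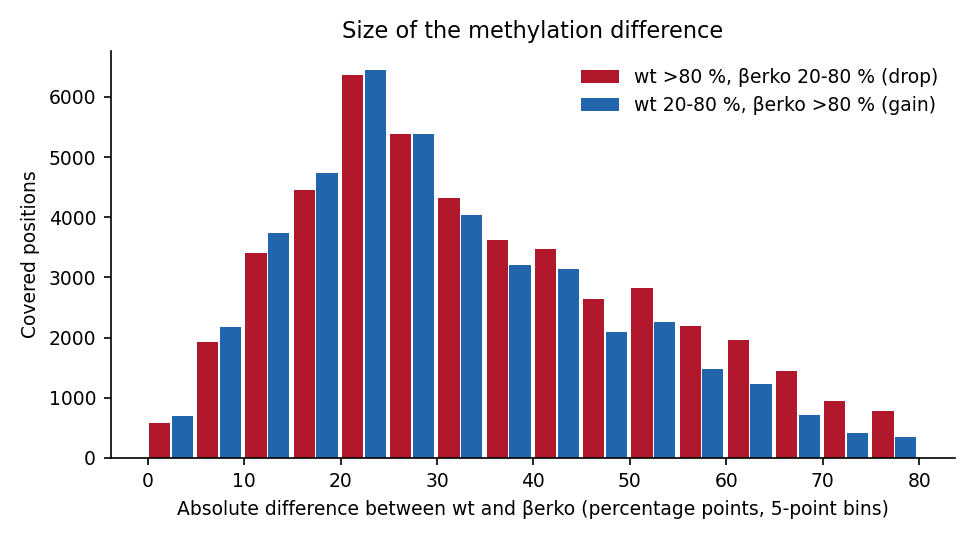
Numbers of covered positions (vertical axis) by the absolute methylation difference between wt and βerko MEFs (horizontal axis, percentage points in bins of 5), for positions fully methylated in wt and partly methylated in βerko MEFs (red) and for the opposite class (blue), with 1 library per cell type. Both classes peak in the bin from 20 to 25 points with 6359 drops and 6446 gains, and above 60 points the red bars are higher than the blue ones.

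The 2 strands of a CpG are read from different DNA strands and give a separate reading of the same site that the rule did not use. Of the 70667 CpGs covered on both strands, 3412 had a partly methylated position by the rule on the plus strand. At these CpGs the minus strand had medians of 94.12 % for wt and 61.54 % for βerko MEFs, and a median drop of 26.925 points (interquartile range 9.47 to 46.86). The minus strand was lower in βerko MEFs at 84.8 % of them, met the same rule at 54.6 %, was above 80 % in both cell types at 23.2 %, and met the opposite rule at 1.67 %. At the 13414 CpGs with a plus strand above 80 % in both cell types, the minus strand had a median drop of 0 and met the rule at 5.78 %. For the opposite class (2453 CpGs) the minus strand had a median drop of -18.87 points, that is a gain, and met that same opposite rule at 48.1 %. The strands of 1 CpG come from the same pair of libraries, so this is no replicate of the genotype.

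Partly methylated positions gathered in runs far more often than the opposite class did. They formed 736 runs that held 5863 positions, 12.7 % of the class (Wilson 95 % interval 12.4 to 13.0 %), whereas the opposite class formed 123 runs with 683 positions (1.62 %, 1.51 to 1.75 %). The ratio of runs was 5.98, against the ratio of 1.10 for positions. In CpG-rich DNA, in which runs tended to lie, the positions themselves were more unequal in number. With 15 to 19 CpGs within 100 bp to either side, the class held 3636 positions and the opposite class 1360. With 20 or more the numbers were 4541 and 1004. How much of the excess of runs follows from this was not tested. All intervals here cover counting error only, since neighbouring positions and PCR reads without molecular identifiers are not independent. The longest run had 50 positions, 22 runs had at least 20, and 151 had at least 10, whereas the longest run of the opposite class had 12 and 2 of its runs reached 10. Positions that were fully methylated in wt MEFs and below 20 % in βerko MEFs, called lost positions in the following and making up 2.24 % of the positions above 80 % in wt MEFs, were more clustered still, with 1517 of 6016 (25.2 %) in 179 runs of up to 35.

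**Figure D2:**
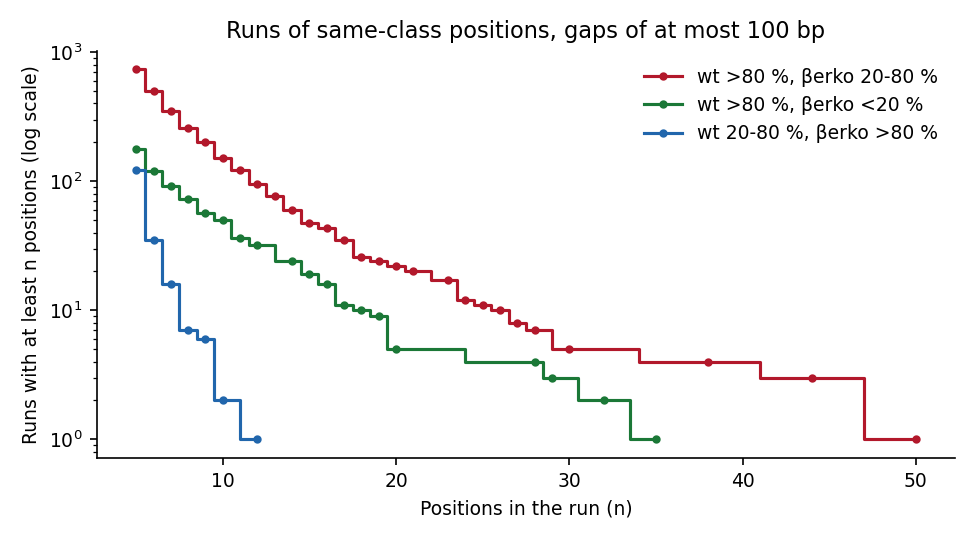
Number of runs (vertical axis, log scale) with at least the number of positions on the horizontal axis, for partly methylated positions (red), lost positions (green) and the opposite class (blue), where neighbours in a run are at most 100 bp apart. Runs of the red class extend to 50 positions, those of the green class to 35 and those of the blue class to 12.

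Runs were short stretches of CpG-rich DNA, and the drop in them was larger than at positions outside runs, which lay in DNA with fewer CpGs. Their span had a median of 106 bp and a maximum of 766 bp, their median size was 6 positions, and 670 of the 736 held positions on both strands. The median drop was 40 points (interquartile range 26.1 to 56) at positions in runs and 29.99 points (20 to 45.38) at those outside, with βerko medians of 53.25 % and 63.64 %. A drop below 20 points was found at 12.4 % of the positions in runs and at 23.8 % of those outside. Within 100 bp to either side, a position in a run had a median of 19 CpGs and a GC content of 68.3 %, and one outside had 6 CpGs and 55.0 %. Over the whole class, in runs or not, the median drop was 30.56 points with 1 to 4 such CpGs. It was 28.57 with 5 to 9, 30.625 with 10 to 14, 37.5 with 15 to 19 and 40.42 with 20 or more. Positions in and outside runs were not compared at equal CpG density.

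The runs differed from each other in depth of loss, and positions of 1 run differed as well. The mean drop of a run ranged from 15.8 to 72.0 points with a median of 40.4, and the mean βerko methylation from 25.5 to 76.9 % with a median of 52.8 %. The standard deviation of the drop within a run had a median of 15.1 points, compared with 11.3 points between the means of the runs and 17.8 points over all positions of the class. By these measured values, neighbours in a run were almost as unlike each other as positions of the whole class. The spreads include counting error, whose size is unknown because the read depth is not given, and the rule itself bounds the drop. How much of the spread within a run is a true difference between neighbours therefore cannot be given.

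Covered positions between the members of runs, which the rule did not take, were mostly lower in βerko MEFs too. Inside the spans of the runs lay 10322 covered positions, of which 5863 (56.8 %) were the partly methylated ones, 511 (4.95 %) were lost, 1641 (15.9 %) were above 80 % in both cell types, and 2307 were not above 80 % in wt MEFs. Among the latter, 2213 lay from 20 to 80 % in wt MEFs, with medians of 64.71 % for wt and 34.21 % for βerko MEFs, a median drop of 24.31 points, and 78.0 % of them were lower in βerko MEFs. Over all 142556 covered positions from 20 to 80 % in wt MEFs the median drop was 0 and 49.8 % were lower. The comparison was not made at equal CpG density, and the lost positions were lower by definition. In the runs of the opposite class, the corresponding 244 positions from 20 to 80 % in βerko MEFs had a median gain of 5.365 points and 55.3 % were higher in βerko MEFs. In 95 runs every covered position belonged to the class.

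The 12 runs with the most positions lay in genes of different function, except the third, which was intergenic, and had wt means from 91.4 to 97.6 % and βerko means from 41.3 to 64.6 %. The largest, 50 positions at chr5:23980275-23980992, lay in an intron of Agap3, which encodes a GTPase-activating protein of the Arf family. Its positions ranged from 80.95 to 100 % (mean 96.0 %) in wt and from 26.09 to 80 % (mean 62.6 %) in βerko MEFs, a mean drop of 33.4 points. A further 31 of its 85 covered positions were above 80 % in both cell types and none was lost, and the nearest lost position was 29371 bp away. This stretch thus held positions on either side of the 80 % limit in βerko MEFs.

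The second run, 44 positions at chr8:124860085-124860572, lay in an exon of Zfpm1, which encodes FOG1, a cofactor of GATA factors. It ranged from 81.25 to 100 % (mean 95.7 %) in wt and from 22.22 to 80 % (mean 47.7 %) in βerko MEFs. The third, 44 positions at chr15:100883725-100884490, was intergenic, 7365 bp from the sodium channel gene Scn8a, and fell from a mean of 96.3 % to 54.6 %, with 29 of 81 covered positions above 80 % in both cell types. These runs had alike numbers and unlike surroundings: the Zfpm1 run held 2 lost positions, with a further one within 100 bp of its ends, whereas the intergenic run was 89293 bp from the nearest.

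The run of 38 positions in an exon of Tnxb (chr17:34808403-34809138), which encodes the matrix protein tenascin X, was the one of the 12 largest most mixed with lost positions. Its members fell from a mean of 94.5 % to 41.6 %, and 22 of the 85 covered positions in its span were lost, read by a median of 20 reads in wt and 63 in βerko MEFs. Over all 85 positions wt MEFs averaged 88.6 % and βerko MEFs 30.7 %.

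Klf14, encoding a Krüppel-like transcription factor, had 30 positions over its promoter and an exon, 13 of them in a UTR, at chr6:30908585-30909042, with means of 91.4 % in wt and 52.4 % in βerko MEFs and no lost position within 489747 bp. Isyna1, encoding the synthase that makes inositol phosphate from glucose phosphate, had 28 at chr8:73118413-73118638 over its promoter and an exon, 4 of them in a UTR, with means of 95.6 % and 41.3 %. The Isyna1 run was the most uniformly altered of this pair, since none of its 31 covered positions stayed above 80 % in both cell types.

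Of the next runs, Nsd1, a histone methyltransferase gene, held 28 positions in an intron (means of 96.1 % and 59.1 %), 953 bp from a lost position. Eml6, encoding a microtubule-associated protein, held 27 in an exon, 20 of them in a UTR (94.3 % and 45.5 %), and Fam129c held 26 across its promoter, exon and intron (92.2 % and 50.4 %). Ajap1, encoding an adherens junction protein, held 26, all in its promoter and 20 also in a UTR (94.4 % and 54.1 %). The last of the 12 lay in genes for cell-surface proteins: Cdh4, encoding R-cadherin, with 25 positions in its promoter and an intron (91.9 % and 59.0 %), and Ptprs, a receptor tyrosine phosphatase, with 24 (97.6 % and 64.6 %). The Cdh4 run was 581060 bp and the Ptprs run 47768 bp from the nearest lost position.

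The deepest mean drops were found in small runs. A run of 6 positions in an exon of Pitx1, a homeobox gene of hindlimb identity, fell from 98.6 % to 26.6 % (72.0 points, chr13:55927844-55927936) and had 7 lost positions within 100 bp. A run of 5 positions 532 bp from Gpr176, encoding an orphan G protein-coupled receptor, was at 100 % at every position in wt MEFs and from 25 to 31.25 % in βerko MEFs (70.9 points, chr2:118199687-118199716), all on 1 strand and 328666 bp from a lost position. A run of 5 in a UTR of H13, encoding signal peptide peptidase, fell from 95.7 % to 26.3 % (69.4 points, chr2:152533349-152533557), with 5 lost positions in its span.

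**Figure D3:**
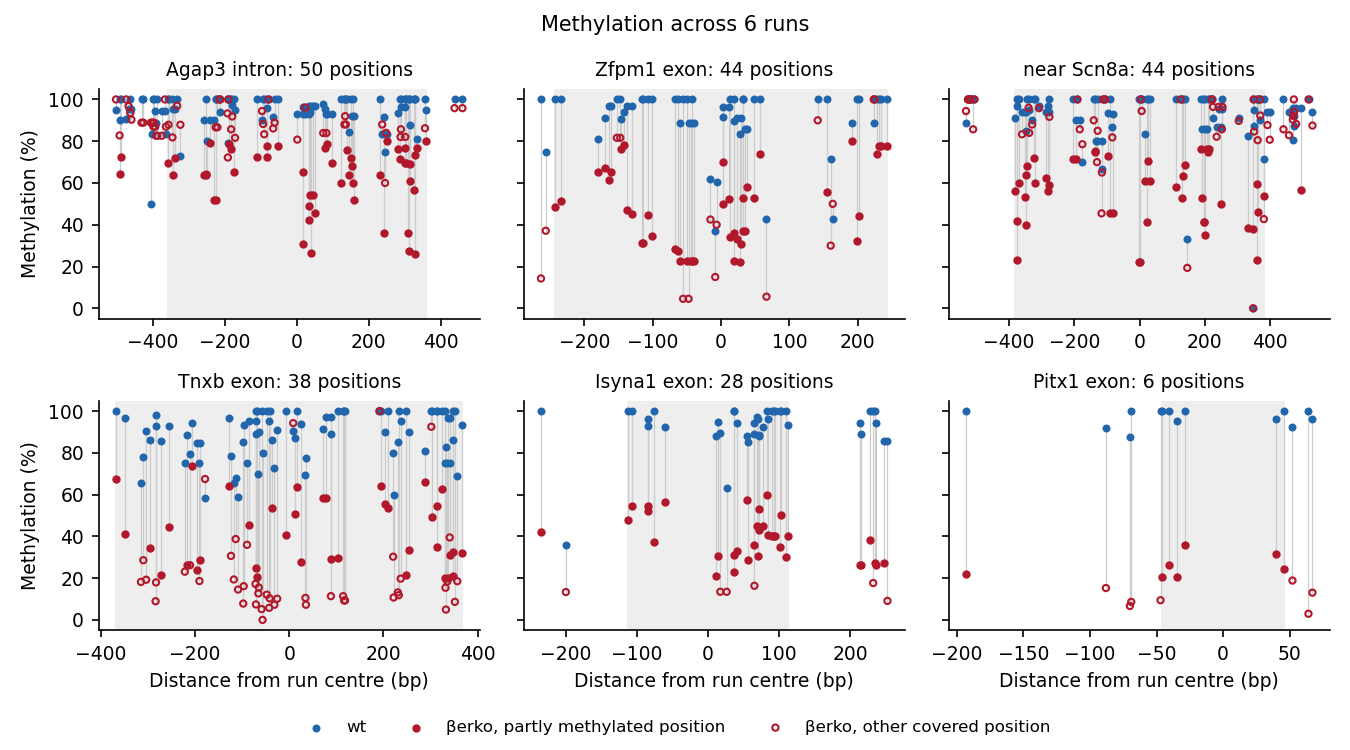
Methylation (vertical axis, %) of each covered position against its distance from the run centre (horizontal axis, bp) in 6 runs, with wt in blue, partly methylated positions in βerko MEFs as filled red circles, other covered positions in βerko MEFs as open red circles, grey lines joining the values of 1 position, and shading for the span of the run. The Agap3 and Scn8a runs mix filled circles with open circles above 80 %, whereas the Tnxb run mixes them with 22 lost positions below 20 %.

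Partly methylated positions lay closer to lost positions than positions that kept their methylation. Both classes were called on the same pair of percentages, so this is a description of how the values were arranged along the genome. Of the partly methylated positions 9.08 % (8.82 to 9.34 %) had a lost position within 100 bp, compared with 0.774 % of the positions above 80 % in both cell types and 0.929 % of the opposite class. With 1 position counted per group of the same class within 500 bp, the share fell to 3.75 %, compared with 0.841 and 0.854 % in the other classes counted likewise. Within 1000 bp of a lost position, with every position counted, the shares were 16.1 % for the class, 2.33 % for positions above 80 % in both cell types and 2.49 % for the opposite class. Seen from the lost positions, 3001 of 6016 (49.9 %) had a partly methylated position within 100 bp. Lost positions were read by at least 4 reads in both libraries, with medians of 20 in wt and 46 in βerko MEFs.

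The share and the depth of partial loss both fell with distance. Among positions above 80 % in wt MEFs that were not lost, 87.7 % were partly methylated at 1 bp from a lost position, which is the other strand of the same CpG or, in CGCG, of the neighbouring one, and 74.3 % at 2 to 50 bp. The share was 60.4 % at 51 to 100 bp, 50.1 % at 201 to 500 bp, 23.0 % at 1001 to 5000 bp and 14.9 % beyond 100000 bp. Along the same distances the median βerko methylation of the partly methylated positions rose from 31.25 % at 1 bp to 40.85, 50.7, 54.17, 60.71 and 65.38 %. The shape was not seen around gained positions, those below 20 % in wt and above 80 % in βerko MEFs, where the share was 19.9 % at 2 to 50 bp, 22.3 % at 201 to 500 bp, 30.8 % at 501 to 1000 bp and 16.9 % beyond 100000 bp.

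**Figure D4:**
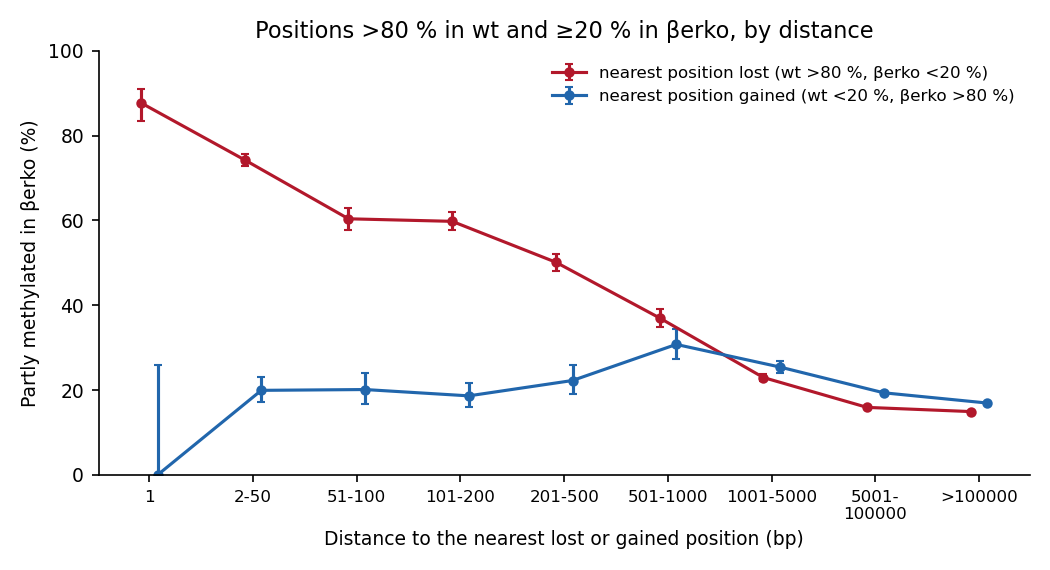
Share of positions above 80 % in wt MEFs and at least 20 % in βerko MEFs that were partly methylated in βerko MEFs (vertical axis, %, Wilson 95 % intervals for counting error), by distance in bp (horizontal axis) to the nearest lost (red) or gained (blue) position. The red line falls from 87.7 % at 1 bp to 14.9 % beyond 100000 bp, and the blue point at 1 bp rests on 11 positions.

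The relation to lost positions was present in each of 5 classes of CpG density, a comparison which, like that with gained positions, was chosen after seeing the data. With 1 to 4 CpGs in the window of 100 bp to either side, 51.4 % of the positions within 100 bp of a lost position were partly methylated, compared with 14.9 % of those more than 5000 bp away. With 20 or more CpGs the corresponding shares were 81.03 % and 40.8 %. High CpG density therefore went with partial methylation also far from lost positions.

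Many runs had no lost position nearby. A lost position lay within 100 bp of 265 of the 736 runs (36.0 %), within 1000 bp of 372 (50.5 %) and within 10000 bp of 435 (59.1 %), while 301 runs had none within 10000 bp. Runs within 100 bp of a lost position had a median of 7 positions and a median mean drop of 48.7 points. Runs with none within 10000 bp had a median of 6 positions and 35.7 points, and βerko medians were 45.2 % and 58.0 %. Long runs were present in both groups, with up to 44 positions in the former and 50 in the latter. Positions in runs had a lost position within 100 bp in 32.8 % of cases and positions outside runs in 5.64 %.

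By place, partial methylation was most frequent in promoters, here the stretch from 500 bp upstream to 100 bp downstream of an annotated transcript start. Of the positions above 80 % in wt MEFs, 28.6 % (27.9 to 29.3 %) were partly methylated in βerko MEFs in promoters, compared with 16.5 % in exons, 15.7 % in introns and 17.4 % between genes. In the opposite class, counted among positions above 80 % in βerko MEFs, the shares were 16.7, 12.1, 15.3 and 19.5 %. Promoter positions made up 9.43 % of the class, more than the 4.51 % among positions methylated in both cell types and less than the 19.12 % among lost positions. These shares depend on the definition of a promoter: from 1000 bp upstream to 500 bp downstream they were 18.4, 9.59 and 36.4 %. With 1 position counted per group of the same class within 500 bp they were 6.46, 3.71 and 16.5 %, in the same order. RRBS covered promoters well, with 29.7 % of all covered positions, but few of these were methylated in wt MEFs.

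Positions in runs differed in place from those outside. Of the positions in runs, 21.4 % lay in promoters, 42.5 % in exons, 19.5 % in introns and 16.6 % between genes, whereas the positions outside runs were at 7.70, 21.1, 33.4 and 37.7 %. A gene or promoter was touched by 599 of the 736 runs, and 195 runs held a promoter position.

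CpG density separated the class more clearly than place did. With 1 to 4 CpGs in the window 15.1 % of the positions above 80 % in wt MEFs were partly methylated in βerko MEFs, with 5 to 9 it was 14.8 %, with 10 to 14 it was 17.996 %, with 15 to 19 it was 31.3 %, and with 20 or more it was 45.5 %. The opposite class had 18.5, 14.9, 14.1, 16.3 and 20.3 % in the same order. The median window of a partly methylated position held 7 CpGs, compared with 6 for positions methylated in both cell types, 13 for lost positions and 5 for the opposite class. A CCGG site held the cytosine in 51.4 % of the class, in 56.2 % of the positions methylated in both cell types and in 44.0 % of the lost ones.

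**Figure D5:**
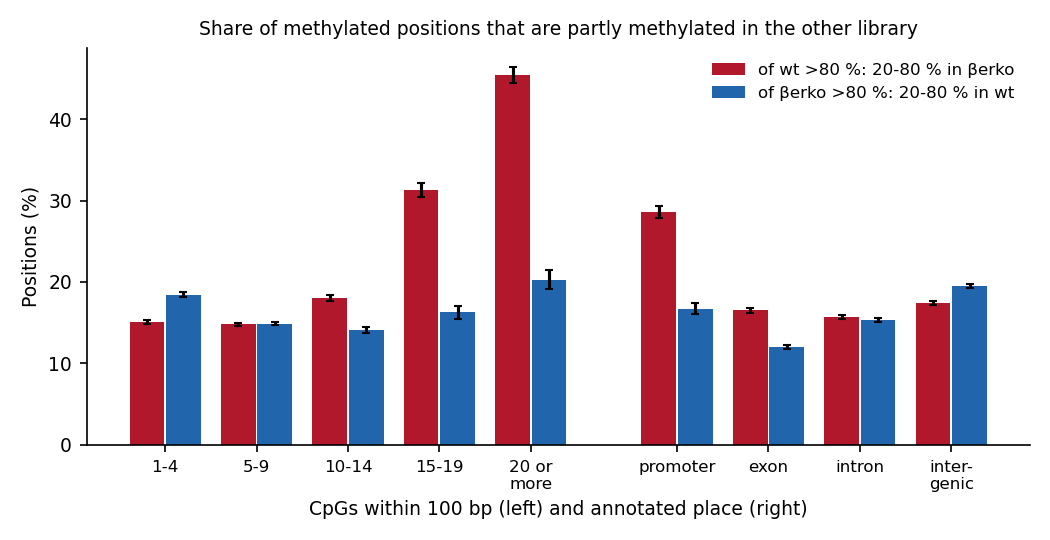
Percentage of positions above 80 % in wt MEFs that were partly methylated in βerko MEFs (red) and of positions above 80 % in βerko MEFs that were partly methylated in wt MEFs (blue), by the number of CpGs within 100 bp to either side (left groups) and by annotated place (right groups), with Wilson 95 % intervals for counting error. With 20 or more CpGs the red bar is at 45.5 % and the blue bar at 20.3 %, and in promoters they are at 28.6 % and 16.7 %.

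Partial methylation was spread over all chromosomes. The share among positions above 80 % in wt MEFs ranged from 15.1 % on chromosome 10 to 19.2 % on chromosome 4 among the autosomes, and was 19.4 % on X. On Y it was 16 of 67 positions. Runs were most numerous on chromosomes 11 (73), 7 (64) and 2 (63).

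Genes were next compared by the partly methylated positions in their bodies and promoters, beside 17.5 % for the positions above 80 % in wt MEFs of all genes. Of 16185 genes with such a position, 9195 had at least 1 that was partly methylated in βerko MEFs. Here and in the gene groups below, a position in overlapping genes was counted once for each gene, so totals exceed the numbers of distinct positions where genes overlap. Counted so, all genes together had 32983 positions in the class and 24564 in the opposite one. The gene model with the most in its body, Gm20388 with 476, spans many genes of chromosome 8 (122434741 to 126869622) including Zfpm1, and its share of 19.6 % was near that of all genes. Fgfr2, a fibroblast growth factor receptor gene, likewise had 76 in a very long model, at 17.3 %.

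In other genes the partly methylated positions were a larger part of the methylated ones. They were 64 of 159 in Agap3 (40.3 %), of which 50 formed its run, and 62 of 109 in Zfpm1 (56.9 %). In Bcor, the X-linked gene of a BCL6 corepressor, they were 59 of 152 (38.8 %), with a median drop of 60 points. Only part of these lay in its 4 runs, which had up to 7 positions, and 21 further positions were lost. Cdh4 had 58 of 111 (52.3 %) with none lost, Casz1, a zinc finger gene of heart development, had 57 of 188 (30.3 %), and Ptprs had 57 of 134 (42.5 %). Unc45b, encoding a chaperone of muscle myosin, had 56 of 91 (61.5 %), all of them shared with the overlapping non-coding Gm12575. Unc45b held 4 runs of up to 17 positions, and Hoxa3 had 56 of 165 (33.9 %).

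The highest shares among the gene groups were those of Pax, homeobox, Hox and T-box genes, all transcription factors of development. Imprinted genes followed closely with 30.4 %. The groups were not compared at equal CpG density. Homeobox genes outside the Hox clusters had 503 of 1340 positions partly methylated (37.5 %), in 65 of the 74 genes with a position above 80 % in wt MEFs, and 13 of the genes had a run. A further 239 positions (17.8 %) were lost, and 172 positions were of the opposite class. Pitx1 had 47, with medians of 95.45 % for wt and 33.33 % for βerko MEFs, and held 5 runs of up to 12. A further 39 of its 101 methylated positions were lost. Isl2, a motor neuron factor, had 40 of 70, from a median of 95.64 % to 43.37 %, and Nkx6-2, a factor of neural patterning, had 34 of 85, from 95.755 % to 40.19 %. These genes stood out by the size of the drop as well, with medians of 60.58, 48.82 and 50.235 points beside 31.25 points as the median over all genes with a partly methylated position.

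The Hox genes, which set position along the body axis, had about as many lost as partly methylated positions, and T-box genes came close to this. Summed over the genes, of 509 methylated positions 167 (32.8 %) were partly methylated and 169 (33.2 %) lost, against 2.66 % lost over all genes. A further 71 positions were of the opposite class. Hoxa3 held 5 runs and 52 lost positions beside its 56 partly methylated ones. Hoxa5 had 15 partly methylated, 30 lost and 4 of 49 that stayed above 80 %. Hoxa4 had 14 of 24, and Hoxd3 had 14 of 37 with a smaller median drop of 25.65 points, none lost, and 22 positions of the opposite class. The span of Hoxa3 includes Hoxa4, Hoxa5 and Hoxa6, and that of Hoxd3 includes Hoxd4. Some positions and runs therefore count for several genes and more than once in the totals of the group.

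Pax genes, which act in organ and neural patterning, had 68 of 181 (37.6 %) and all 8 with a methylated position had at least 1, but none had a run, and 59 positions were of the opposite class. Pax5, a B cell factor, had 15, and Pax6, Pax7 and Pax9 had 12 each. T-box genes had 71 of 230 (30.9 %), led by Tbr1, a factor of cortical neurons, with 31 including a run of 21, Tbx1 with 19 and Tbx2 with 6. A further 63 (27.4 %) were lost, 21 of them in Tbx3, which had none partly methylated. The opposite class was slightly more numerous in T-box genes, with 77 positions, of which 27 lay in Tbx4 and 26 in Tbx2. Forkhead, Sox and Gata genes had 262 of 988 (26.5 %), with 55 of 125 in Gata3, a T cell and trophoblast factor, and 19 each in Gata6 and Foxf2, and 146 of the opposite class. In mesenchymal and myogenic bHLH genes 17 of 76 were partly methylated (22.4 %), 7 of them in Hand1, 5 in Twist2 and 2 each in Heyl and Myf5, and 18 positions were of the opposite class.

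The signalling pathways differed from each other. Genes of the TGF-β and BMP pathway had 224 of 897 (24.97 %), with 31 in Ltbp3 and 20 in Ltbp4, which encode binding proteins of latent TGF-β, and 19 each in Smad6, an inhibitor of BMP signals, and Gdf7, a BMP ligand, and 82 of the opposite class. Wnt pathway genes had 173 of 916 (18.9 %), near the share of all genes, and 113 of the opposite class. Among the former were the receptor genes Fzd10 with 29 of 33, Fzd5 with 16 of 22 and Fzd8 with 14 of 26. The single receptor gene Fzd10 thus had 87.9 % of its methylated positions in the class, with 3 runs and a median drop of 41.38 points.

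Imprinted genes had 189 of 621 (30.4 %), with a median of 27.27 points for the median drop of a gene, below that of all genes, and 95 positions of the opposite class. Gnas, encoding the stimulatory G protein subunit, had 38 of 89, with medians of 92.31 % and 35.905 %. Grb10, an inhibitor of growth factor receptor signals, had 34 of 48, of which 21 formed a run, mostly in its promoters. Cdkn1c, a maternally expressed inhibitor of the cell cycle, had 32 of 43 and held 3 runs.

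The groups below the value of all genes were the genes of the fibroblast matrix, the germline and the methylation enzymes. Matrix genes had 106 of 839 (12.6 %) and no run, with 12 in Col4a2, 11 in Col5a1 and 8 each in Col18a1 and Col4a1, all collagen genes, and 56 positions of the opposite class. Germline genes had 54 of 440 (12.3 %), led by the piRNA pathway gene Tdrd1 with 8 and the meiotic genes Sycp3 with 6 and Dmc1 with 5, and 48 of the opposite class. Genes for enzymes that add or remove DNA methylation had 24 of 241 (9.96 %), with 6 in Tet1, 4 in Smug1, which encodes a uracil glycosylase, 3 each in Tet3, Dnmt3a and Dnmt1, no run, and 17 of the opposite class. Tdg had 3 positions above 80 % in wt MEFs and all remained so.

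Oestrogen and oestrogen-related receptor genes had 40 of 191 (20.9 %) and 36 of the opposite class. Of these, 20 lay in Esrrg, 14 in Esr1, which encodes oestrogen receptor α, and 4 in Esrrb, and the medians at the Esr1 positions were 95.68 % and 44.585 %. At Esr2, the gene targeted in βerko MEFs, 22 positions were covered in both libraries and 8 of these were above 80 % in wt MEFs, of which 7 remained so, 1 was lost and none was partly methylated.

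The labelled cell type could be looked at only by promoter methylation, since no RNA was measured in these libraries. The promoter of the fibroblast gene Col1a1 was at 0 % at all 3 covered positions in both cell types. That of Col1a2, the partner chain of type I collagen, averaged 93.6 % in wt against 48.3 % in βerko MEFs, and all 5 of its covered positions were partly methylated by the rule. Vim, encoding vimentin, had 1 such position of 6 (means of 64.2 and 58.5 %), and the pluripotency gene Pou5f1 had 2 of 5 (83.1 and 65.7 %). No position was covered in the promoters of Thy1, S100a4, Pdgfra, Nanog and Dppa3. The part that a different makeup of the cultures may have in the partial methylation was not tested.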

How the data were processed

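RRBS was performed on 1 library each of wt and βerko MEFs, each from pooled DNA of 3 batches. The authors mapped reads with the Genomatix Mining Station (version not given in the sources used here), and the submitters' processing notes name CASAVA 1.4 and mm9. The deposited table of both libraries gives percent methylation per cytosine, without coverage. The deposited lists of lost and gained positions give read counts per library (at most 208 in wt and 159 in βerko MEFs at lost positions). All 826937 positions were CpG cytosines of NCBIM37, whose annotation gave places and genes.

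From these, classes, runs, distances and CpGs per window were computed (Python 3.11.15, pandas 2.3.3, NumPy 2.4.6, Wilson intervals by statsmodels 0.14.6). A promoter took precedence over exon, intron and intergenic. Of gene names, 20507 were used and 164 given to separate genes were left out, and 430 of 445 listed genes matched. Run finding was tested on simulated data and recovered 50 of 50 runs. The positions were chosen, and the gene lists made, with earlier results of these data known. Named were the 12 runs with the most positions, the 3 with the largest mean drop, the 10 genes with the most positions in their bodies (and ties), the first 3 genes of each list (and ties), Esr2, Tdg and the marker promoters. No hypothesis was tested, since each cell type had 1 library. Alternatives changed thresholds, strands, chromosomes, run definition, promoter size and lost positions.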

Additional observations from a re-analysis of the deposited data

How the results depend on the processing

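The excess of runs over the opposite class was present in each alternative for which the opposite class was counted, a comparison chosen after seeing the data, as were the other classes under the promoter and grouping alternatives. With wt above 90 % the runs numbered 393 (32 in the opposite class) with 2925 positions, and with 30 to 70 % in βerko MEFs 338 (28) with 2482 of 26807 positions. With at least 3 positions per run there were 2533 runs (1301) with 11764 positions, and with no other covered position allowed between members 285 (28) with 1750. The share of the class in promoters was 8.94 % above 90 % in wt, 10.3 % at 30 to 70 % in βerko MEFs, 18.4 % with promoters taken 1000 bp upstream and 500 bp downstream, and 6.46 % with 1 position per group within 500 bp. The share within 100 bp of a lost position was 9.37 and 9.61 % under the same stricter limits, 7.93 % with both strands merged and 3.75 % with 1 position per group. The cause of these shifts was not tested. The median drop was 33.77 points above 90 % in wt, 38.55 points at 30 to 70 % in βerko MEFs, 30.77 points with strands merged and 31.03 points on autosomes. It was 27.44 points on the plus strand when the minus strand chose. With lost positions of more than 4 reads in both libraries, 8.82 % of the class had one within 100 bp. No paired analysis was possible because each cell type had 1 library, and for the same reason no replicate could be left out. The depth of the positions being unknown, how many differences of a few points lie within counting error cannot be given.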
